A study of Mus musculus with 6 samples.

Results

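Interferon-stimulated genes are the genes that cells switch on when interferons reach them. The 49 described here were taken from a list of gene symbols that was drawn up with earlier results of these libraries in view, and all 49 were found among the 54532 gene IDs of the deposited table. RNA came from heart ventricles of mouse embryos at E12.5. There were 3 control libraries, labelled CTL, and 3 libraries labelled LSD1-KO, in which Kdm1a, which encodes the histone demethylase LSD1, was conditionally deleted. The labels name no other allele or treatment for either group. They do not state which Cre line or cell type removed the gene, the strain, or whether each sample is a separate embryo. The p-values therefore reflect only the variation among these 6 libraries, some of which may be technical. Levels are FPKM, fragment counts scaled to exon length and library size, as deposited. Of the members, 41 averaged 0.5 FPKM or more across libraries and were tested with limma on log2(FPKM + 1) among 14149 genes. Ifit3b lay just inside that limit, at a mean of 0.521 FPKM, and Oasl1 just outside, at 0.490 FPKM.

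Type I interferons bind the receptor pair IFNAR1 and IFNAR2, whose kinases JAK1 and TYK2 phosphorylate STAT proteins, STAT2 among them. With IRF9 these form the factor ISGF3, which binds a DNA element called the interferon-stimulated response element, or ISRE. Many of the induced proteins block viral entry, translation or replication, and some, such as IRF7 and IRF9, feed back on the pathway, while USP18 and the SOCS proteins restrain it. Type II interferon acts through another element, the gamma-activated site, or GAS.

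The element can be seen in the DNA just before the start of several members. Promoters of 250 bases before and 50 bases after each annotated start were taken from RefSeq (GRCm38.p6, the assembly of mm10) and matched by symbol for 39 of the 49 members; Ifi27, Ly6e, Mx1, Mx2, Oas2, Parp10, Parp14, Parp9, Rtp4 and Usp18 were not matched. The ISRE core was searched as GAAANNGAAA and its other strand TTTCNNTTTC, with overlapping matches counted. In 44 of 49 matched promoters, bases 21 to 50 after the start were found in a transcript of the same gene. The exceptions belonged to Gbp3, Ifit2, Ifit3b, Stat2 and Trim30a, and the cause was not tested. Windows are printed for 7 of the 9 called members with a match, to show how the matches repeat and overlap, and for Irgm1, which had overlapping matches and was not called. Capitals mark the bases covered by a match, and each line reads 5′ to 3′ on the strand of the gene.

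Isg15: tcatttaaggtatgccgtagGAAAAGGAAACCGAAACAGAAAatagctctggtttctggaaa
Ifit1: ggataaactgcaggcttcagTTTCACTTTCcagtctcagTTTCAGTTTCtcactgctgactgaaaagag
Ifit3: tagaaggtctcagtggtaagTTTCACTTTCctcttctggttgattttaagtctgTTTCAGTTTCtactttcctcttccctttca
Ifit3b: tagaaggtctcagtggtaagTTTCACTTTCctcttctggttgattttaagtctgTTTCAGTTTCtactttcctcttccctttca
Bst2: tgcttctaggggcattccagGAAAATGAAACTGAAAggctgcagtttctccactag
Oas1a: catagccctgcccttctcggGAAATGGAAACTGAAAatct
Igtp: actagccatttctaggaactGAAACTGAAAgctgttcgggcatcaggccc
Irgm1: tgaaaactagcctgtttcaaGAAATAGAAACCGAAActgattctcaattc

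On the assembly GRCm38.p6 these windows lie at chr4:156200855-156200916 on the minus strand for Isg15, chr19:34640765-34640833 (plus) for Ifit1, chr19:34583353-34583436 (plus) for Ifit3 and chr19:34607749-34607832 (plus) for Ifit3b. They lie at chr8:71537567-71537622 (minus) for Bst2, chr5:120907526-120907565 (minus) for Oas1a, chr11:58199502-58199551 (plus) for Igtp and chr11:48871421-48871470 (minus) for Irgm1. Isg15 held 3 overlapping matches from base -78 to base -57 before its start. Ifit1 held 2 separate matches from base -104 to base -76. The windows of the neighbouring paralogs Ifit3 and Ifit3b were identical over all 84 bases, with 2 matches each. In Bst2 and Oas1a 2 matches overlapped, ending at bases -115 and -5. Igtp had 1 match, and Irgm1 had 2 that overlapped, from base -30 to base -15.

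Across the 27025 genes with a promoter listed, 3.99% had at least 1 ISRE core match, and 0.266% had 2 or more in a single promoter. Among the members 19 of 39 had a match (48.7%) and 10 had 2 or more. Of the members whose transcripts were called higher, 9 of 13 had a match, against 9 of 21 that were tested and not called and 1 of 5 that were not tested. Among the 191 other genes that were called higher and had a promoter in the table, 5.76% had a match. The GAS core, searched as TTCNNNGAA, stood in 9 of the 39 member promoters and in 9.55% of all genes. A match is a description of these letters and does not show that a factor binds there. The 4 called members without one were Ifit2, Irf7, Irf9 and Parp12. The median fitted change was 0.72 on the log2 scale for the 18 tested members with an ISRE match and 0.55 for the 16 without.

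**Figure D1:**
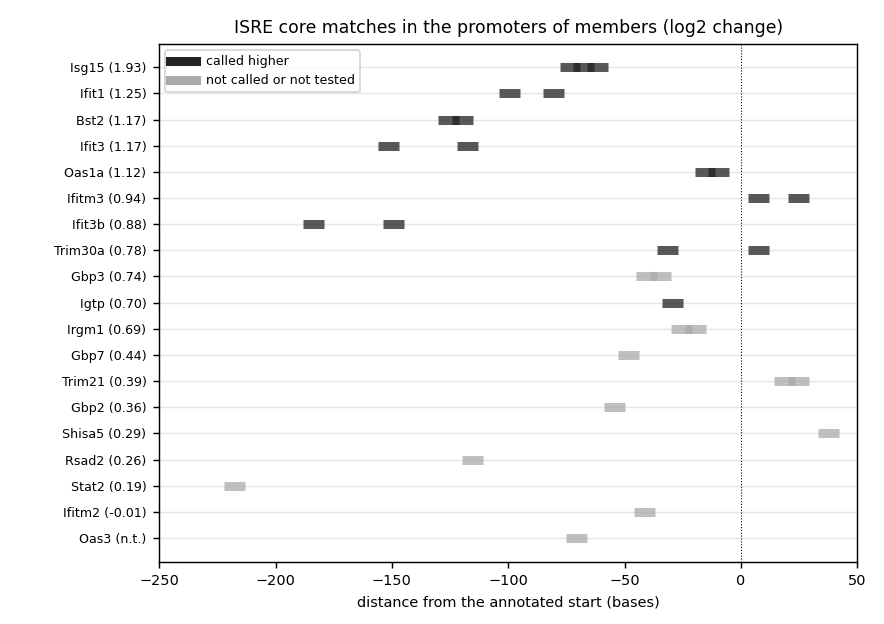
Position of ISRE core matches (bars, 10 bases each) in the 300-base promoters of the 19 members that have one, by distance in bases from the annotated start; the value beside each name is the fitted log2 change and n.t. marks a member not tested. Matches of called members (black) lie between 188 bases before and 29 bases after the start, and where a gene has several annotated starts all of its promoters share a row.

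The labels were checked first. Kdm1a stood at 30, 29.7 and 22.8 FPKM in control replicates 1 to 3 and at 10.7, 11.8 and 11 FPKM in the knockout libraries, so the groups did not overlap. The ventricular markers Myl2, Irx4 and Hey2 summed to 3153 to 3620 FPKM in control and 3243 to 3420 FPKM in knockout libraries, nearly all of it Myl2. Irx4 was at 20.9 ± 2.94 and 18.6 ± 2.22 FPKM and Hey2 at 29.8 ± 5.9 and 23.1 ± 0.73 FPKM (SD, n = 3 each). All 3 had a fitted change below 0 and 0 were called (limma adjusted p = 0.568 for Irx4 and 0.278 for Hey2). Reads recovered from the steps of the FPKM values, summed over genes, came to 17898945 to 20076038 per library. These sums are approximate, since not all values came out whole. A floor of 3 reads in a gene of 1 kb is worth 0.155 to 0.169 FPKM. Knockout replicate 3 stands apart by sex: it had 12.1 FPKM of Xist and 0 reads in each of 4 Y-linked genes. Knockout replicate 1 had Y-linked reads and 1.11 FPKM of Xist.

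A share of the interferon-stimulated genes was higher in the knockout ventricles. Of the 41 tested members 15 rose, 26 were not called and 0 fell by limma (threshold 0.05 after Benjamini-Hochberg adjustment over all genes tested), where 1.91% of all tested genes were called higher and 0.466% lower. The fitted change was above 0 in 39 of 41 members, against 45.9% of all tested genes, and its median was 0.55 on the log2 scale, against -0.01 for all genes tested. All 3 knockout libraries lay above all 3 control libraries in 36 of the 41 tested members, where 11% of tested genes do so. With the 8 untested members included, they did so in 42 of all 49. In 0 members did they lie wholly below, against 10.4% of tested genes. An unadjusted p under 0.05 was found for 35 members, all with a change above 0, against 8.67% of tested genes. Because the list was drawn up with results of these samples known, these counts describe it and are not independent evidence of its direction. Of the 41 tested members 6 passed the filter with a control mean under 0.5 FPKM, and 4 of these were called; of the 35 with a control mean of at least 0.5 FPKM 11 were called. In a bulk sample, more cells that express a gene and more RNA of it per cell cannot be told apart.

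**Figure D2:**
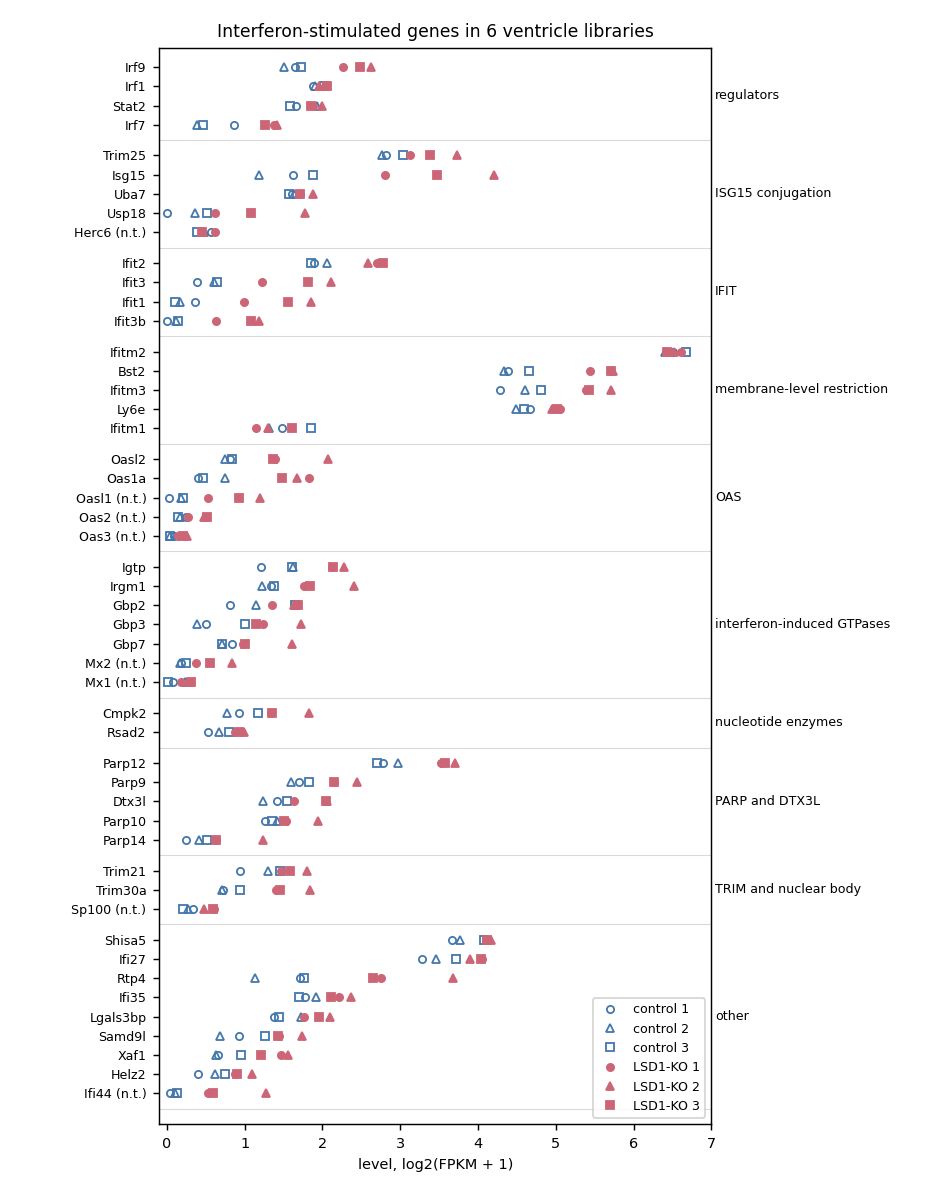
Level of each of the 49 members in each library, as log2(FPKM + 1), grouped by role; open blue symbols are control and filled red symbols LSD1-KO libraries, with circles, triangles and squares for replicates 1, 2 and 3, and n.t. marks the 8 members not tested. The knockout symbols lie to the right of the control symbols in 42 of 49 rows and in 36 of the 41 tested, where 11% of all tested genes lie so.

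The ISG15 system attaches a small ubiquitin-like protein to other proteins. Isg15 itself, which lies on chromosome 4 from 156199424 to 156200818, was at 2.08, 1.26 and 2.67 FPKM in control and at 6, 17.4 and 10.1 FPKM in knockout libraries. The lowest knockout library was above the highest control, and the knockout libraries differed among themselves by more than the controls did. The means were 2 ± 0.707 and 11.2 ± 5.8 FPKM (SD, n = 3 each), and the fitted change of 1.93 on the log2 scale (SE 0.33, limma adjusted p = 0.0295) was the largest among the 41 tested members at a pseudocount of 1 FPKM. At a pseudocount of 0.1 FPKM Ifit1 (2.86) and Ifit3b (2.73) exceeded Isg15 (2.35), as they did by voom and by ratio of means. The enzymes that attach and remove ISG15 were not called. Trim25, an E3 ligase for ISG15 and ubiquitin, was at 6.05, 5.78 and 7.18 FPKM in control and 7.74, 12.3 and 9.47 FPKM in knockout libraries, without passing the test (limma adjusted p = 0.129). Usp18, the protease that removes ISG15 and blunts receptor signalling, was listed at 0, 0.282 and 0.427 FPKM in control and 0.536, 2.42 and 1.12 FPKM in knockout (adjusted p = 0.186 with limma). That is 0, 14 and 23 reads against 27, 131 and 56. Uba7, the activating enzyme, stood at 2.04 ± 0.0751 and 2.41 ± 0.241 FPKM (SD, n = 3 each; limma adjusted p = 0.394), and Herc6, the mouse ligase, was under the filter at 0.312 to 0.542 FPKM with overlapping groups.

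IFIT proteins bind viral RNA and hinder its translation. The 4 listed genes of this family were called higher, where 1.91% of all tested genes were. Ifit1, Ifit3 and Ifit3b had control means under 0.5 FPKM and entered the test only through their knockout levels, so the count of 4 is no support for the family; Ifit2 did not need them. The genes lie on chromosome 19 in the order Ifit2, Ifit3, Ifit3b and Ifit1, from 34550694 to 34650009. Ifit2 had the highest control level of the 4, at 2.7, 3.15 and 2.63 FPKM, and reached 5.52, 5 and 5.89 FPKM in knockout libraries (ratio of means 1.94, log2 change 0.76, SE 0.09, limma adjusted p = 0.00644). Ifit1 was at 0.286, 0.127 and 0.078 FPKM in control, or 14, 6 and 4 reads, and at 0.979, 2.62 and 1.94 FPKM, or 47, 135 and 92 reads, in knockout (log2 change 1.25, SE 0.21, limma adjusted p = 0.0285). The groups of Ifit1 did not overlap, and the ratio of means was 11.3, from few control reads. Ifit3 went from 0.463 ± 0.135 to 2.38 ± 0.993 FPKM (SD, n = 3 each; limma adjusted p = 0.0367). Ifit3b had 0, 3 and 4 reads in control and 20, 49 and 40 in knockout libraries, with means of 0.0626 ± 0.0551 and 0.979 ± 0.375 FPKM (SD, n = 3 each; limma adjusted p = 0.0362). Ifit3 and Ifit3b cannot be fully separated, since 41.1% of the 75-base stretches of Ifit3 transcripts and 35.7% of those of Ifit3b occur in the other gene. Their separate values are therefore uncertain. Ifit1 shares 5.19% of its stretches with another gene of the family, Ifit1bl2.

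Proteins that act at membranes made up the most abundant group. Bst2, or tetherin, which holds budding virus at the cell surface, was at 20, 19.2 and 24.2 FPKM in control and 42.6, 52.4 and 51.4 FPKM in knockout libraries. Its means were 21.1 ± 2.71 and 48.8 ± 5.39 FPKM (SD, n = 3 each), a ratio of 2.31, with the smallest p among the tested members (log2 change 1.17, SE 0.11, limma adjusted p = 0.00354). Ifitm3, which blocks fusion of virus in endosomes, was at 18.4, 23.4 and 27.1 FPKM in control and 40.8, 51.4 and 41.9 FPKM in knockout (ratio 1.95, limma adjusted p = 0.0198). Ly6e, a lipid-anchored surface protein, rose by the smallest ratio of the 15, 1.36: from 24.4, 21.4 and 23.1 FPKM to 32.2, 30 and 31.3 FPKM (limma adjusted p = 0.0241). The 2 relatives of Ifitm3 on chromosome 7 did not pass the test. Ifitm2 was the most abundant member, at 91.6 ± 8.89 and 91 ± 5.63 FPKM (SD, n = 3 each; limma adjusted p = 0.979). Gm45717 covers 40.9% of its exon bases. Ifitm1 was at 1.96 ± 0.578 and 1.57 ± 0.428 FPKM (SD, n = 3 each; limma adjusted p = 0.617). These were the 2 members with a fitted change below 0, and Ifitm1 lies between Ifitm2 and Ifitm3.

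Regulators of the response were split. Irf9, the DNA-binding subunit of ISGF3, rose from 2.12, 1.85 and 2.3 FPKM to 3.8, 5.19 and 4.58 FPKM (ratio 2.17, log2 change 0.83, SE 0.11, limma adjusted p = 0.0114). Irf7, which amplifies interferon-alpha production, rose from 0.818, 0.313 and 0.384 FPKM to 1.6, 1.68 and 1.39 FPKM (ratio 3.08, limma adjusted p = 0.036). Neither gene had overlapping groups, where 11% of all tested genes had every knockout library above every control library. Stat2, the partner of IRF9 in ISGF3, was at 2.32 ± 0.429 and 2.76 ± 0.209 FPKM (SD, n = 3 each; limma adjusted p = 0.442), and Irf1, a transcription factor that interferons induce, at 2.82 ± 0.199 and 3.04 ± 0.145 FPKM (SD, n = 3 each; limma adjusted p = 0.657). Both had overlapping groups.

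Oligoadenylate synthetases sense double-stranded RNA and activate RNase L, and the Oasl proteins are their relatives. Oas1a rose from 0.316, 0.686 and 0.385 FPKM to 2.55, 2.19 and 1.78 FPKM (ratio 4.7, log2 change 1.12, SE 0.14, limma adjusted p = 0.00797). Its control mean of 0.462 FPKM was under the filter, so Oas1a entered the test only through its knockout levels. Reads of Oas1a may be divided with its neighbour Oas1g, in whose transcripts 47.6% of the 75-base stretches of Oas1a also occur. Oasl2 was at 0.748, 0.679 and 0.788 FPKM in control and at 1.61, 3.19 and 1.56 FPKM in knockout, with no overlap, but did not pass the test (limma adjusted p = 0.0817). The other 3 were under the filter. Oasl1 had 1, 6 and 8 reads in control and 21, 65 and 42 in knockout, Oas2 15, 10 and 9 against 17, 34 and 34, and Oas3 8, 3 and 4 against 13, 27 and 20. In each of these 3 untested genes the knockout FPKM lay above the control FPKM in all libraries, where 11% of tested genes do so.

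Interferon-induced GTPases act on viral capsids and on the vacuoles of intracellular microbes. Igtp, an immunity-related GTPase, rose from 1.31, 2.08 and 2.05 FPKM to 3.34, 3.85 and 3.41 FPKM (ratio 1.94, limma adjusted p = 0.0354). Irgm1, which regulates this family, was at 1.52, 1.33 and 1.59 FPKM in control and 2.39, 4.31 and 2.58 FPKM in knockout, without overlap and without passing the test (limma adjusted p = 0.0895). The guanylate-binding proteins Gbp3, Gbp7 and Gbp2, which lie together on chromosome 3, had ratios of 2.83, 1.95 and 1.44 (limma adjusted p = 0.13, 0.271 and 0.437). Only Gbp2 among these 3 had overlapping groups, and 11% of all tested genes had every knockout library above every control library. Mx1 and Mx2 were under the filter, with 1 to 16 and 8 to 55 reads per library. Mx2 knockout libraries lay above control and those of Mx1 did not.

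Enzymes that modify nucleotides or add ADP-ribose included 1 called gene, where 1.91% of all tested genes were called higher. Parp12, an ADP-ribosyltransferase with antiviral activity, rose from 5.85, 6.81 and 5.51 FPKM to 10.5, 12.1 and 11 FPKM (ratio 1.85, log2 change 0.79, SE 0.09, limma adjusted p = 0.00609). Parp9 and Dtx3l, whose products form a complex and whose genes start near each other on chromosome 16, had similar ratios and did not pass the test as fitted. Parp9 was at 2.26, 2.02 and 2.55 FPKM in control and 3.44, 4.42 and 3.45 FPKM in knockout (limma adjusted p = 0.0503). Parp9 lay at the threshold: it was called after rescaling to TPM (limma adjusted p = 0.0336), with library weights (0.0305), with a filter at 2 FPKM (0.0447), at pseudocounts of 0.1 (0.0469) and 0.5 (0.0485) and with voom (0.0140). Dtx3l went from a mean of 1.65 to 2.8 FPKM (limma adjusted p = 0.122). Their ratios were 1.66 and 1.7. Parp14 and Parp10 had ratios of 2.6 and 1.42 (limma adjusted p = 0.289 and 0.284). Rsad2, or viperin, which makes a chain-terminating nucleotide, was at 0.437, 0.596 and 0.741 FPKM in control and 0.83, 0.987 and 0.904 FPKM in knockout libraries (limma adjusted p = 0.299). Its neighbour Cmpk2, a nucleotide kinase, was at 0.898, 0.715 and 1.24 FPKM and at 1.53, 2.54 and 1.56 FPKM (limma adjusted p = 0.152). All 7 of these genes had knockout levels above control in each library, where 11% of all tested genes do.

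Among TRIM and other members, Trim30a and Rtp4 rose. Trim30a, a tripartite motif protein, went from 0.646, 0.629 and 0.92 FPKM to 1.64, 2.59 and 1.73 FPKM (ratio 2.72, limma adjusted p = 0.0367). Rtp4, a transmembrane chaperone of receptors, went from 2.26, 1.19 and 2.41 FPKM to 5.76, 11.8 and 5.28 FPKM (ratio 3.9, log2 change 1.49, SE 0.28, limma adjusted p = 0.0422). Exons of Gm45338 cover 13.9% of Rtp4. Trim21, a cytosolic antibody receptor, was at 0.919, 1.45 and 1.74 FPKM in control and 1.76, 2.5 and 1.99 FPKM in knockout (limma adjusted p = 0.271), and Xaf1, a pro-apoptotic factor, at 0.578, 0.551 and 0.928 FPKM and 1.76, 1.93 and 1.31 FPKM (limma adjusted p = 0.0512). Xaf1 was called after rescaling to TPM (0.0341), with library weights (0.0246), with voom (0.0105) and without control replicate 3 (0.0389), as limma adjusted p-values. Ifi27, Ifi35, Samd9l, Lgals3bp, Shisa5 and Helz2 had ratios from 1.23 (Shisa5) to 1.98 (Samd9l) and limma adjusted p-values from 0.0713 to 0.237. In each of them the knockout libraries lay above the controls, where 11% of all tested genes do so. Under the filter, Ifi44 had 3, 8 and 11 reads in control and 49, 168 and 55 in knockout libraries, and Sp100, a nuclear body protein, 36, 28 and 23 against 71, 57 and 68.

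**Figure D3:**
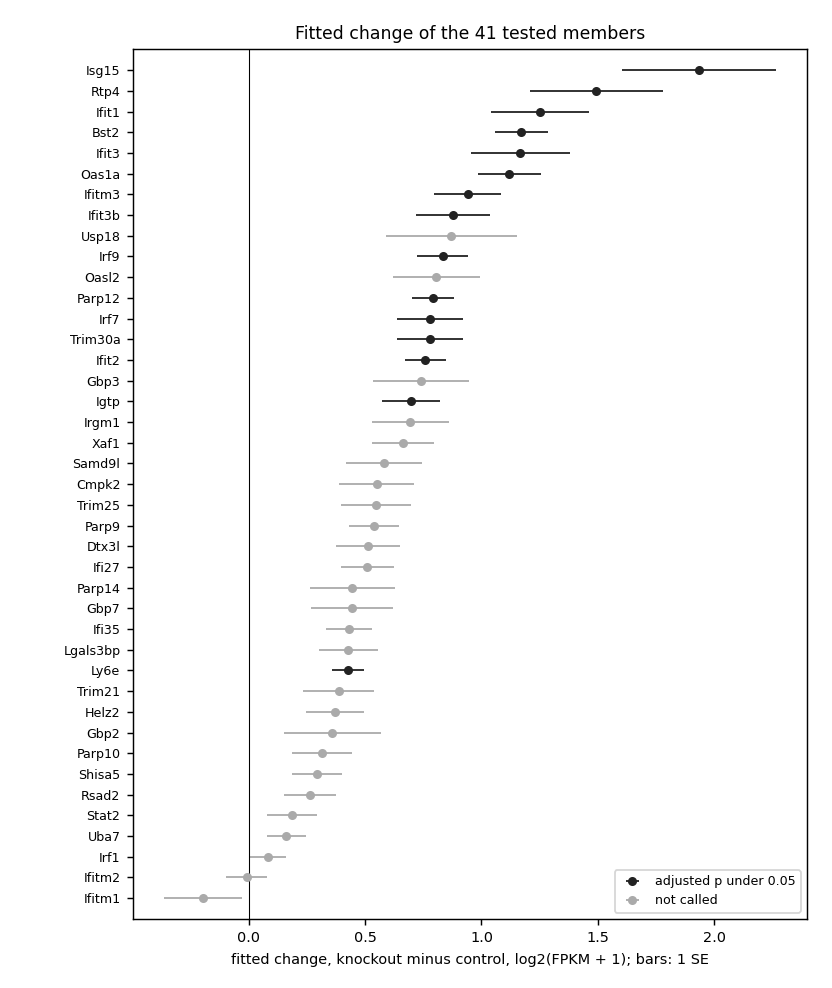
Fitted difference of knockout minus control on the log2(FPKM + 1) scale for the 41 tested members, with bars of 1 SE; black marks the 15 members with a limma adjusted p under 0.05. The values run from -0.20 for Ifitm1 to 1.93 for Isg15.

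The knockout libraries differed in how high the members stood. Knockout replicate 2 had the highest level of the 3 knockout libraries in 33 of 41 tested members (80.5%), whereas it was highest in 32.9% of all tested genes and in 42.4% of the 255 other genes called higher. The median level over the control mean was 1.65 in knockout replicate 1, 2.22 in replicate 2 and 1.75 in replicate 3. Isg15 stood at 2.99, 8.7 and 5.02 times its control mean in the 3 libraries, and Rtp4 at 2.95, 6.03 and 2.71. Not all members followed that order. Oas1a and Ly6e were highest in knockout replicate 1, at 5.53 and 1.4 times control, and Ifit2 in knockout replicate 3, at 2.08 times. Taken singly, knockout replicate 1 was above all 3 controls in 37 tested members, replicate 2 in 37 and replicate 3 in 38, where 24.6%, 25.6% and 27.4% of all tested genes were.

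**Figure D4:**
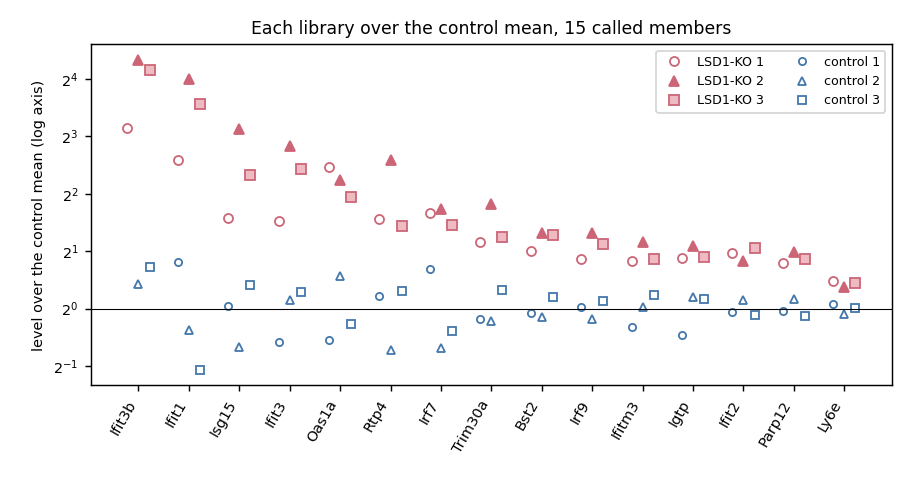
Level of each library divided by the control mean for the 15 called members, on a log axis; red symbols are LSD1-KO and blue symbols control libraries, by replicate. Control replicate 1 of Ifit3b is listed at 0 and is not drawn, and knockout replicate 2 is the highest symbol in 12 of the 15 genes.

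The number of calls depended on which library was left out. It was 9 without control replicate 1, 5 without control replicate 2, 13 without control replicate 3, and 9, 6 and 4 without knockout replicate 1, 2 and 3, with 0 lower each time. Bst2, Parp12, Ifit2 and Oas1a stayed called in all 6 of these fits (limma adjusted p 0.00412 to 0.0427) and Irf9 in 5, being lost without knockout replicate 3 (0.0545). Of these genes Oas1a passed the filter only through its knockout levels. Isg15 was lost without knockout replicate 3 (0.103), control replicate 1 (0.0888) or control replicate 2 (0.0966). Ifitm3, Ly6e and Igtp were called without control replicate 1 or control replicate 3 and lost otherwise (0.0537 to 0.135). Ifit1, Ifit3 and Ifit3b were called only without knockout replicate 1, Irf7 only without control replicate 1 and Trim30a only without control replicate 3, with adjusted p from 0.0602 to 0.135 in the other fits; Rtp4 was lost in all 6 (0.0577 to 0.115). With a score of sex-linked RNA as covariate, which mostly sets knockout replicate 3 apart, 4 were called: Bst2, Parp12, Ifit2 and Oas1a. The shares of all tested genes called with a library left out or with this covariate are not given here. A fall from 15 may therefore not be particular to the members. A fit of the recovered reads by limma-voom, chosen after seeing the data, called 25 members higher, all 15 included, where 2.96% of tested genes were.

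The pathway around the members was described with lists chosen by function, with earlier results of these data known. Transcripts of 8 interferon genes, Ifnb1, Ifna4, Ifna2, Ifng, Ifnl2, Ifnl3, Ifnk and Ifne, were listed at 0 in all 6 libraries, and a count of 0 allows up to 3 reads per library. The receptor genes and their kinases were expressed in both groups. Ifnar1 was at 10.3 ± 1.64 and 9.57 ± 1.02 FPKM, Ifnar2 at 6.51 ± 0.79 and 6.88 ± 0.245, Jak1 at 21.3 ± 1.74 and 20.5 ± 0.858 and Tyk2 at 3.84 ± 0.392 and 3.99 ± 0.359 FPKM (SD, n = 3 each), all with overlapping groups. None of these 4 was called (limma adjusted p 0.735 to 0.856).

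Of 19 tested sensors of nucleic acids and their adaptors 2 rose and 1 fell, where 1.91% of all tested genes were called higher and 0.466% lower. Ddx58, which encodes the RNA sensor RIG-I, rose from 2.13 ± 0.158 to 3.72 ± 0.628 FPKM (SD, n = 3 each; limma adjusted p = 0.0402), and Dhx58, its relative LGP2, from 0.232 ± 0.0542 to 0.886 ± 0.0962 FPKM (SD, n = 3 each; limma adjusted p = 0.0285). Dhx58 had a control mean under 0.5 FPKM and entered the test only through its knockout levels, so the count of 2 is no support for the list. The RNA sensors Ifih1, Eif2ak2, Tlr3 and Tlr7 were not called (limma adjusted p = 0.272, 0.207, 0.735 and 0.946). Ifih1 went from 0.427 ± 0.0829 to 0.851 ± 0.329 FPKM (SD, n = 3 each) without overlap, where 11% of all tested genes had every knockout library above every control library. The groups of Eif2ak2, Tlr3 and Tlr7 overlapped. Rnaseh2c, a subunit of the enzyme that removes RNA from RNA-DNA hybrids, fell from 56.4 ± 3.16 to 43.1 ± 2.78 FPKM (SD, n = 3 each; limma adjusted p = 0.0453), with 24.8% of its exon bases under Kat5. Dhx58 and Rnaseh2c lost their calls whichever library was left out (0.0563 to 0.156), and Ddx58 stayed called only without knockout replicate 1 (0.0596 to 0.136 otherwise). Among 10 tested brakes of the pathway Socs2, a suppressor of cytokine signalling, rose from 4.02 ± 0.338 to 5.68 ± 0.28 FPKM (SD, n = 3 each; limma adjusted p = 0.0416), a call lost in all 6 fits that left out a library (0.0525 to 0.158).

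A further list held 43 interferon-induced genes outside the members. It too was drawn up with earlier results of these data known, so its counts are not independent evidence of a direction. Of its 27 tested genes 5 rose and 0 fell, against 1.91% and 0.466% of all tested genes, and the median change was 0.30 on the log2 scale, against -0.01 for all genes. Slfn2, a growth-regulating Schlafen protein, rose from 3.46 ± 0.593 to 7.01 ± 0.848 FPKM (limma adjusted p = 0.0123), the zinc finger antiviral protein gene Zc3hav1 from 2.73 ± 0.434 to 5.16 ± 0.731 FPKM (limma adjusted p = 0.0245) and Ifi27l2a from 6.08 ± 1.39 to 11.8 ± 1.23 FPKM (SD, n = 3 each; limma adjusted p = 0.0273). The others were Tor3a and Irgm2, named after their values were seen. Slfn2 was called in 4 and Zc3hav1 and Ifi27l2a in 2 of the 6 leave-one-out fits (0.0519 to 0.105 where lost). None of the tested genes of antigen presentation in that list was called. B2m, the light chain of class I molecules, was at 162 ± 16.9 and 219 ± 20.2 FPKM (SD, n = 3 each, limma adjusted p = 0.0879), without overlap. It was called with voom (adjusted p = 0.0232) and in 1 leave-one-out fit. Psmb8 of the immunoproteasome was at 0.71 ± 0.292 and 0.992 ± 0.276 FPKM (SD, n = 3 each, limma adjusted p = 0.537). Both were chosen after their values were seen. Tap1, Tap2, Psmb9 and Nlrc5 were under the filter and not tested. Knockout lay above control in Tap1 (means 0.266 and 0.581 FPKM) and Nlrc5, and the groups overlapped in Tap2 and Psmb9. Of all tested genes 11% had every knockout library above every control library.

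Markers of immune cells, which express many interferon-stimulated genes, were measured in the same libraries. The 11 macrophage markers summed to 156, 153 and 182 FPKM in control and 197, 181 and 210 FPKM in knockout libraries. The groups overlapped only between control replicate 3 and knockout replicate 2. Lyz2 of this list was at 34.2, 36.8 and 58.3 FPKM in control and 52.2, 50.9 and 58.2 FPKM in knockout libraries. None of these 11 was called by limma, with 4 at an unadjusted p under 0.05 and 0 called by voom. Of the 11, 9 had a fitted change above 0, the median change was 0.25 on the log2 scale, and C1qa, C1qb, C1qc and Fcgr1 lay wholly above control, where 11% of all tested genes do. C1qc, with the smallest p, stood at 15.9 ± 0.217 and 19.1 ± 0.708 FPKM (SD, n = 3 each; limma adjusted p = 0.0894), and Fcgr1, an antibody receptor, had the largest ratio, 1.42 (limma adjusted p = 0.112). The receptor genes Csf1r and Adgre1 stood at 9.99 ± 0.917 and 10.3 ± 0.96 FPKM and at 5.23 ± 0.566 and 5.06 ± 0.829 FPKM (SD, n = 3 each). The 3 pan-leukocyte markers summed to 12.48 to 13.7 FPKM in control and 14.9 to 15.2 FPKM in knockout libraries, without overlap. Of the plasmacytoid dendritic cell markers Siglech was at 0.0801 to 0.314 FPKM and Ccr9 at 0 to 0.0101 FPKM. Tcf4 of that list was at 2.43 ± 0.153 and 2.38 ± 0.209 FPKM (SD, n = 3 each), and Bst2, also a marker of these cells, is among the members. The 6 lymphoid markers summed to 0.0894 to 0.225 FPKM in control and 0.0142 to 0.0442 FPKM in knockout libraries, from few reads. The T cell marker Cd3e was at 0 in all libraries. The 4 granulocyte markers summed to 23.1 FPKM in control replicate 2 and 17.3 FPKM in knockout replicate 2, against 0.546 to 3.18 FPKM in the other 4 libraries. The part of the macrophage and pan-leukocyte marker levels in the members' levels was not tested.

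**Figure D5:**
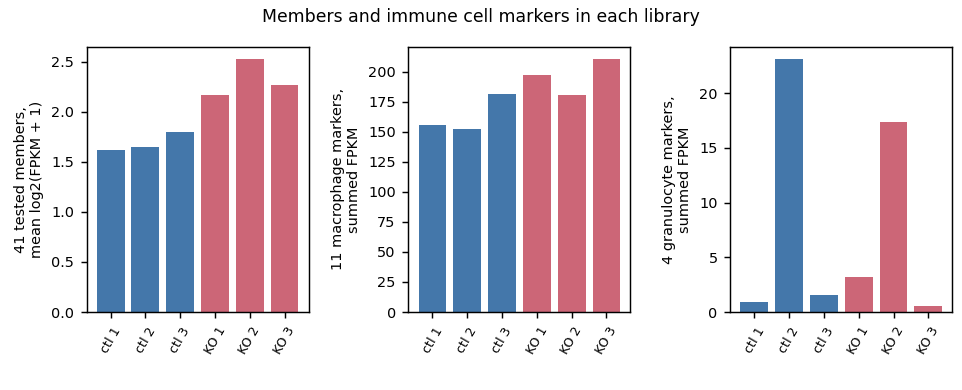
Bars give, for each of the 6 libraries, the mean log2(FPKM + 1) of the 41 tested members, the summed FPKM of 11 macrophage markers and the summed FPKM of 4 granulocyte markers; blue is control and red LSD1-KO. The members' mean runs from 1.62 to 1.80 in control and from 2.17 to 2.52 in knockout libraries. The macrophage sums overlap only between control replicate 3 (182 FPKM) and knockout replicate 2 (181 FPKM). The granulocyte sums are high in replicate 2 of each group. The pan-leukocyte sums, which did not overlap between groups, are not drawn.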

How the data were processed

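The authors deposited FPKM values for 54532 Ensembl gene IDs in 6 libraries. Per the submitters' processing notes the tools were CASAVA, fastp, HISAT2 2.0.5 and featureCounts 1.5.0-p3 with mm10; the annotation release is not given in the sources used here. Per the labels' protocols, the kit was NEBNext Ultra, which does not mark strand. Names, exon lengths and coordinates came from GENCODE M21 (GRCm38), which named all but 37 IDs; promoters came from RefSeq. FPKM times exon length gave whole reads: 98.1% to 98.5% of values up to 30 reads lay within 0.02 of a whole number. Genes averaging 0.5 FPKM or more were fitted with limma 3.58.1 in R 4.3.3 on log2(FPKM + 1), with a trend and genotype as its sole covariate; tests were two-sided, with Benjamini-Hochberg adjustment over all genes tested. Changes of low genes are understated on that scale, and ratios of means are added. The procedure was tested on simulated data. Tables were made with Python 3.11.15, pandas 2.3.3 and numpy 2.4.6. Alternatives changed the filter, pseudocount, scaling, library weights, covariates and libraries; voom on recovered reads was chosen after seeing the data. Members and lists were chosen with earlier results of these data known. Values in each library are given for called members and, in role groups with fewer than 2 calls, for the 2 members with the smallest p; pathway lists name up to 3 called genes, else the smallest p. Results that need 2 other listed genes are not reported here.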

Additional observations from a re-analysis of the deposited data

How the results depend on the processing

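The count of members higher in the knockout was 15. It moved to 4 without a filter on low values (49 members tested), to 4 with the sex score as covariate, to 25 with voom on recovered reads, and ranged from 4 to 13 when a library was left out. It was 10 with a mean of at least 2 FPKM, where only 21 members were tested. Under pseudocounts of 0.1 and 0.5, TPM, quantile normalisation and library weights it was 14 to 18 of 41. No member was called lower in any of these fits. Except for voom, the share of all tested genes called is not given for these alternatives. Changes in the count may therefore not be particular to the members. With the replicate number as a block (replicate block) 10 members were called; same-numbered libraries are not shown to be paired, since their deviations correlated at -0.0021, 0.14 and 0.164, and not every library correlated best with its own number. The median change of the tested members, 0.55 on the log2 scale, was 0.81 after rescaling to TPM, 0.90 at a pseudocount of 0.1 and 0.96 with voom, where the scale itself gives low genes a larger change. After rescaling to TPM the median of all tested genes was also higher, at 0.06 against -0.01. Single genes that changed sign lay near 0. Leave-one-out changes ran from -0.150 to 0.0256 for Ifnar1, from -0.0135 to 0.134 for Ifnar2, from -0.0988 to 0.0120 for Jak1 and from -0.0235 to 0.0961 for Tyk2, and Jak1 was 0.0336 after rescaling to TPM; the cause was not tested. Control reads were fewer than 30 in every library for the called genes Ifit1, Ifit3, Ifit3b and Oas1a, which limits their precision; the 8 members under the filter were not tested.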
